A study of Sus scrofa with 9 samples.

Results

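Amino acid and peptide transporters were followed in transplanted pig kidneys. The set held 39 genes, measured by 42 probe sets, out of 12362 named genes and 19124 probe sets on the array. A gene belonged to it when the array annotation gave 1 symbol for a probe set and that symbol was of the solute carrier families SLC1, SLC3, SLC6, SLC7, SLC15, SLC36, SLC38 or SLC43. The symbol alone decided membership, though the families were picked with earlier results of these data known. For the 3 genes with several probe sets (SLC15A3, SLC36A2 and SLC38A2), the probe set of highest mean over all arrays stood for the gene. No probe set was named for an SLC43 gene, nor for several carriers well known in kidney, among them SLC3A2, SLC6A6, SLC6A20, SLC7A5, SLC7A9 and SLC7A11, which were not analysed here.

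The biopsies came from 9 male Yorkshire pigs of 30 kg, 1 Affymetrix array each. The right kidney of each animal was without blood flow for 30 min while warm, was then taken out and flushed, and went back into the same animal, which lost its left kidney in that operation. NEVKP kidneys (n = 3) were perfused for 8 h outside the body at normal body temperature (normothermic ex vivo kidney perfusion) before they were returned. SCS kidneys (n = 3) lay for 8 h in static cold storage, in cold solution without flow, and No Storage kidneys (n = 3) were returned directly. All biopsies date from day 3 after the operation, so warm ischemia and transplantation were common to all groups and no untouched kidney was part of the comparison.

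The kidney filters free amino acids and small peptides into the urine, and the proximal tubule takes nearly all of them back. Carriers in the luminal brush border bring them into the cell, mostly with sodium or protons, and other carriers release them into the blood across the basolateral membrane. Further family members sit on lysosomes, feed growing cells, or move neurotransmitters and osmolytes. Inherited defects of such carriers cause aminoacidurias, for example Hartnup disorder (SLC6A19), cystinuria (SLC3A1) and lysinuric protein intolerance (SLC7A7).

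The values are log2 intensities, so a difference of 1 is a doubling, and they are comparable between arrays for 1 gene but not between genes. Array medians ran from 5.705 to 5.797, and arrays correlated at 0.974 to 0.991 across probe sets. Dim probe sets are those with a mean under 3.92, the lowest 25% on the array, and they stood for 6 of the 39 genes (SLC15A1, SLC15A5, SLC36A3, SLC6A15, SLC7A1 and SLC7A14). The median SD of a transporter gene within a group was 0.25 in NEVKP, 0.25 in SCS and 0.18 in No Storage (n = 3 each), against 0.18, 0.19 and 0.15 over all probe sets. In array weights, which score how far each array strays from its group, SCS replicate 2 (0.464) and NEVKP replicate 2 (0.565) were lowest and the other arrays had 0.93 to 1.62. Of 10 proximal tubule marker genes measured, 10 were above the dim limit. The fraction of tubule cells in a biopsy and the RNA of each tubule cell cannot be told apart in such samples.

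In cold-stored kidneys 1 transporter gene fell past the threshold, and several luminal carriers had differences of a similar size that did not pass. SLC38A11, a member of the sodium-coupled neutral amino acid transporter family, was 3.03-fold lower in SCS than in No Storage. The peptide transporter gene SLC15A2 had a log2 difference of -1.41 and the luminal amino acid carrier genes SLC6A19 and SLC6A18 had -1.18 and -1.14. On the positive side the differences were smaller, up to 0.58 for SLC38A1. In limma with all 9 arrays, 1 of 39 genes passed an adjusted p of 0.05 in SCS against No Storage, where 0.162% of all probe sets did (31 of 19124). It was lower in SCS, as were 0.0941% of all probe sets, and 0 genes were called higher, against 0.068%. An unadjusted p under 0.05 was found for 11 genes on the lower side and 2 on the higher side, where 7.79% and 7.75% of all probe sets had one. The SCS arrays lay wholly below the No Storage arrays for 13 genes and wholly above them for 3, where 11.6% and 11.3% of all probe sets did so. The median difference of the 39 genes was -0.19, beside 0.0096 over all probe sets, and 24 differences were negative and 15 positive (28 and 11 with every array centred on its median). SCS replicate 2 carried much of that median, which was -0.0085 without it.

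Warm-perfused kidneys had 0 of 39 genes past the threshold against No Storage (limma), as was the case for 0% of all probe sets. The largest difference was -1.32 for SLC38A3, a glutamine carrier, and it came with a wide spread among the NEVKP arrays. An unadjusted p under 0.05 was found for 6 genes on the lower side and 4 on the higher side, against 4.4% and 4.67% of all probe sets. The NEVKP arrays lay wholly below No Storage for 8 genes (8.57% of all probe sets) and wholly above for 3 (7.94%). The median difference was -0.11, beside -0.011 over all probe sets, and it was -0.072 without No Storage replicate 3. The comparisons of NEVKP and of SCS with No Storage share the No Storage arrays.

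NEVKP against SCS is the direct comparison of the 2 ways of keeping the organ. Again 0 of 39 genes and 0% of all probe sets passed in limma. An unadjusted p under 0.05 was found for 7 genes higher in NEVKP and 1 lower, against 3.8% and 3.7% of all probe sets. The NEVKP arrays lay wholly above the SCS arrays for 7 genes (5.01% of all probe sets) and wholly below for 2 (6.78%). The largest positive differences were 1.24 for SLC15A2, 0.96 for SLC38A11 and 0.81 for SLC6A18. On the negative side the largest were -1.12 for SLC38A3 and -0.55 for SLC1A5, or -0.34 and -0.33 without NEVKP replicate 2. The median difference was 0.077, beside -0.021 over all probe sets, and it was -0.021 without SCS replicate 2. An F test among the 3 groups passed for 0 of 39 genes (limma), with 13 genes at an unadjusted p under 0.05, against 0.00523% and 12.8% of all probe sets.

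**Figure D1:**
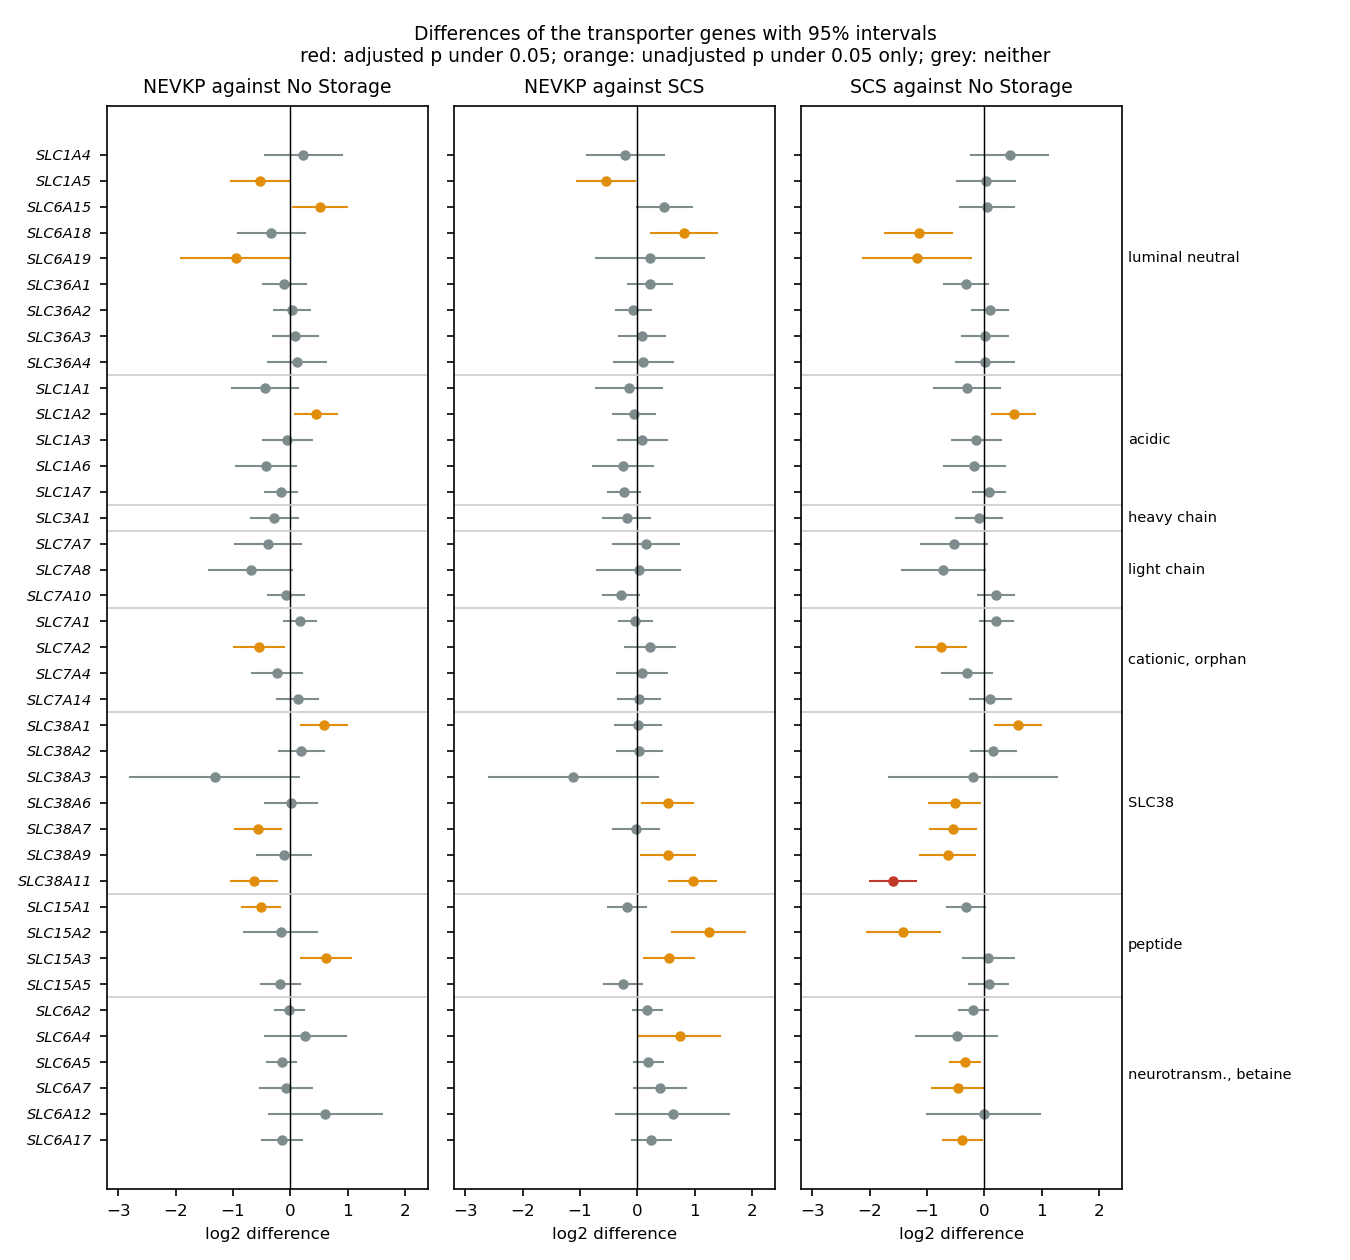
Log2 difference (x axis) of each of the 39 transporter genes (rows, by function class) in the 3 comparisons, with bars for the 95% interval from limma. SLC38A11 in SCS against No Storage (-1.60) is the gene past the adjusted threshold, and the bars of SLC38A3 are among the widest.

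Carriers of neutral amino acids come first, a class that holds brush border carriers and also genes known from neurons or lysosomes. SLC6A18 (NCBI Gene ID 100520648) encodes a carrier of glycine and other neutral amino acids of the brush border, described mainly in mouse. Its log2 values were 10.07, 10.66 and 10.73 in NEVKP, 9.31, 9.57 and 10.16 in SCS, and 10.999, 10.43 and 11.04 in No Storage. Every SCS array lay below every No Storage array, while NEVKP overlapped both groups. The difference of SCS from No Storage was -1.14 (SE 0.26, limma adjusted p = 0.0946), that of NEVKP from No Storage -0.33 (0.746) and that of NEVKP from SCS 0.81 (0.599).

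SLC6A19 (NCBI Gene ID 641346) encodes the main sodium-coupled carrier of neutral amino acids of the early proximal tubule. Its values were 8.88, 7.09 and 8.15 in NEVKP, 8.13, 7.06 and 8.26 in SCS, and 9.15, 8.76 and 9.07 in No Storage. Replicate 2 was the lowest array of NEVKP and also of SCS, and the SCS arrays lay below all No Storage arrays. Differences from No Storage were -0.95 in NEVKP (SE 0.42, limma adjusted p = 0.546) and -1.18 in SCS (SE 0.42, limma adjusted p = 0.22). Without NEVKP replicate 2 the NEVKP difference was -0.48, and without SCS replicate 2 the SCS difference was -0.80.

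The other measured genes of this class stood closer together. SLC1A5 encodes an exchanger of glutamine and other neutral amino acids, with values of 9.55, 8.75 and 9.31 in NEVKP, 9.92, 9.49 and 9.86 in SCS, and 9.47, 10.05 and 9.67 in No Storage. NEVKP replicate 2 was the lowest, and the groups overlapped. Its difference was -0.53 for NEVKP against No Storage (limma adjusted p = 0.534) and -0.55 for NEVKP against SCS (0.648), with 0.02 for SCS against No Storage. Without NEVKP replicate 2 the NEVKP differences were -0.31 and -0.33. SLC1A4, a related carrier of alanine, serine and cysteine, had 5.14, 5.92 and 5.27 in NEVKP, 5.96, 5.97 and 5.04 in SCS, and 5.30, 5.57 and 4.79 in No Storage. Each group of SLC1A4 spanned over 0.7 log2 units, and its differences lay between -0.21 and 0.44.

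SLC6A15, a carrier of branched-chain amino acids and proline best known from neurons, was dim. It had 3.20, 4.13 and 3.43 in NEVKP, 3.02, 3.21 and 3.12 in SCS, and 3.04, 3.24 and 2.93 in No Storage. NEVKP replicate 2 stood above all other arrays, and the NEVKP difference from No Storage of 0.52 (limma adjusted p = 0.528) was 0.24 without it. SLC36A2, a proton-coupled carrier of glycine and proline, had 4.04, 4.22 and 4.0 in NEVKP, 3.94, 4.14 and 4.39 in SCS, and 4.09, 4.05 and 4.04 in No Storage, with no separation. Its second probe set followed the first with a correlation of 0.988 over 9 arrays. SLC36A1 and SLC36A4, proton-coupled carriers found also on lysosomes, and SLC36A3 had differences between -0.32 and 0.21 in the 3 comparisons. Over the 9 genes of the class 0 passed in any comparison (limma), with medians of 0.027 for NEVKP and 0.010 for SCS against No Storage. The class is mixed, so its SCS median does not describe SLC6A18 and SLC6A19, at -1.14 and -1.18.

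**Figure D2:**
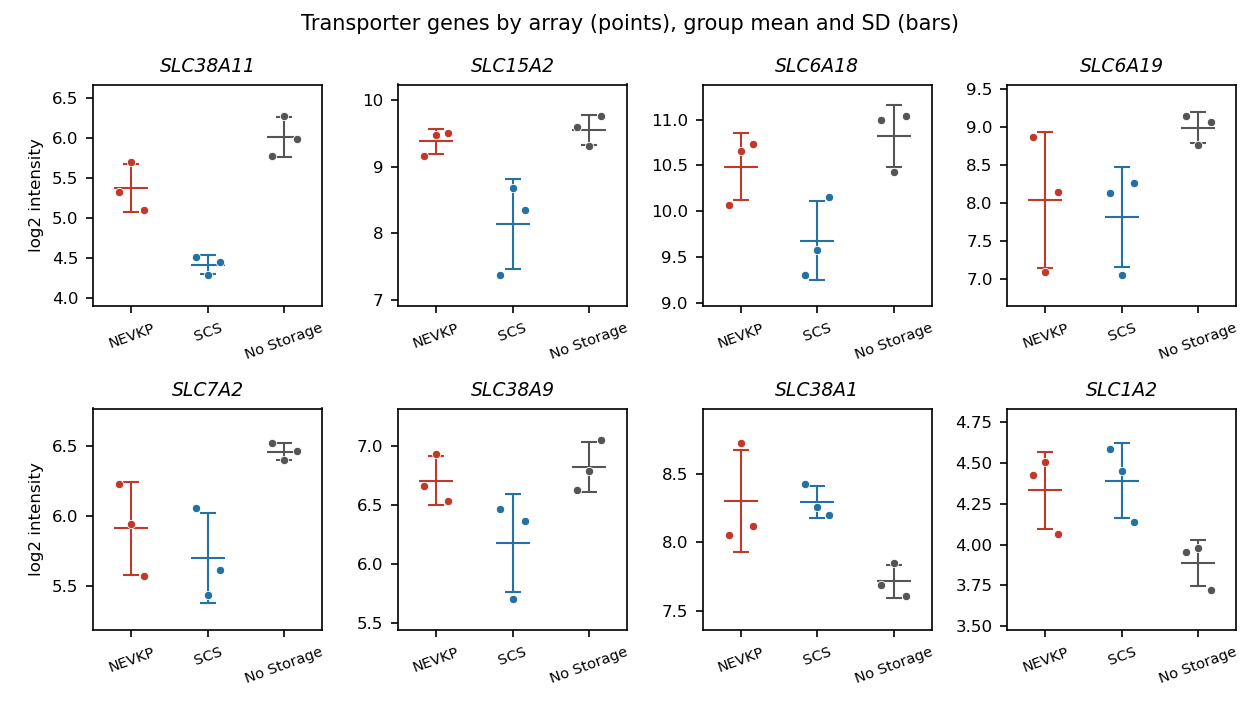
Log2 intensity (y axis, own scale for each gene) of 8 transporter genes in NEVKP, SCS and No Storage kidneys, with a point for each array, a line for the mean and bars for the SD (n = 3 each). The SCS arrays of SLC38A11 lie between 4.29 and 4.51, below all NEVKP and No Storage arrays.

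Carriers of acidic amino acids gave no call. SLC1A1 (NCBI Gene ID 397003), the luminal carrier of glutamate and aspartate, had 9.88, 9.24 and 9.74 in NEVKP, 10.05, 9.17 and 10.07 in SCS, and 9.94, 9.95 and 10.32 in No Storage. Its lowest value in NEVKP and in SCS was that of replicate 2. The difference from No Storage was -0.45 in NEVKP (SE 0.26, limma adjusted p = 0.637), with no overlap of the arrays, and -0.31 in SCS (0.634). Without replicate 2 of the group these were -0.26 in NEVKP and -0.0085 in SCS. SLC1A2, a glutamate carrier best known from astrocytes, had 4.43, 4.51 and 4.06 in NEVKP, 4.58, 4.45 and 4.14 in SCS, and 3.96, 3.98 and 3.72 in No Storage. All 6 stored kidneys lay above all No Storage kidneys. The differences were 0.45 in NEVKP (SE 0.17, limma adjusted p = 0.486) and 0.51 in SCS (SE 0.17, limma adjusted p = 0.182). SLC1A2 was not counted as dim, but its No Storage mean of 3.89 lay under the dim limit of 3.92, close to background. SLC1A7, a glutamate carrier known from the retina, had 4.44, 4.51 and 4.57 in NEVKP, 4.73, 4.67 and 4.85 in SCS, and 4.54, 4.86 and 4.62 in No Storage. SLC1A3 and SLC1A6 had differences from No Storage between -0.43 and -0.06.

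Cystine and dibasic amino acids enter the tubule cell through a carrier whose heavy chain is encoded by SLC3A1 (NCBI Gene ID 100144588). Its values were 10.20, 9.58 and 10.07 in NEVKP, 10.05, 9.94 and 10.42 in SCS, and 10.20, 10.30 and 10.20 in No Storage. Apart from NEVKP replicate 2 at the low end, the groups overlapped closely. The differences were -0.28 in NEVKP, or -0.097 without that array, and -0.09 in SCS against No Storage, and the 95% interval for SCS reached from -0.50 to 0.31. The partner light chain gene SLC7A9 was not analysed here.

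On the basolateral side, SLC7A8 (NCBI Gene ID 100522330) encodes a light chain that exchanges neutral amino acids. It had 10.61, 9.11 and 10.35 in NEVKP, 9.81, 9.89 and 10.31 in SCS, and 10.61, 10.66 and 10.88 in No Storage. Every stored kidney lay below every No Storage kidney, NEVKP replicate 1 by less than 0.01. The difference was -0.69 in NEVKP (SE 0.33, limma adjusted p = 0.561), which was -0.24 without NEVKP replicate 2, and -0.71 in SCS (0.331). SLC7A7, the light chain that releases cationic amino acids into the blood, had 10.04, 9.85 and 10.44 in NEVKP, 9.70, 9.69 and 10.49 in SCS, and 10.60, 10.11 and 10.78 in No Storage. The groups overlapped, with differences of -0.39 in NEVKP (limma adjusted p = 0.68), or -0.25 without No Storage replicate 3, and -0.53 in SCS (0.356) from No Storage. SLC7A10, a light chain for small neutral amino acids studied in brain and fat, had 4.44, 4.58 and 4.29 in NEVKP, 4.65, 4.86 and 4.65 in SCS, and 4.52, 4.33 and 4.70 in No Storage. NEVKP lay below SCS in all arrays, by 0.28 on average (limma adjusted p = 0.688).

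Of the uniporters of cationic amino acids, SLC7A2 (NCBI Gene ID 100037298) brings arginine, lysine and ornithine into cells. Its values were 6.23, 5.94 and 5.57 in NEVKP, 6.06, 5.43 and 5.61 in SCS, and 6.52, 6.40 and 6.46 in No Storage. The No Storage arrays were tight, with an SD of 0.06, and lay above all 6 stored kidneys. The difference was -0.55 in NEVKP (SE 0.20, limma adjusted p = 0.471) and -0.76 in SCS (SE 0.20, limma adjusted p = 0.118). SLC7A1, the widely expressed carrier of the same amino acids, was dim, with 3.82, 3.97 and 3.64 in NEVKP, 3.83, 3.84 and 3.87 in SCS, and 3.51, 3.79 and 3.63 in No Storage. The SCS arrays of SLC7A1 lay above No Storage by 0.20 (limma adjusted p = 0.508). For SLC7A4 and SLC7A14, whose substrates are less settled, the differences from No Storage lay between -0.30 and 0.13.

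The SLC38 family of sodium-coupled neutral amino acid carriers held the 1 call. SLC38A11 (NCBI Gene ID 100737086) had 5.32, 5.70 and 5.10 in NEVKP, 4.51, 4.29 and 4.44 in SCS, and 5.77, 6.27 and 5.99 in No Storage. The 3 groups did not overlap, with SCS lowest, NEVKP between and No Storage highest. It fell in SCS, to 4.41 ± 0.12 against 6.01 ± 0.25 in No Storage (SD, n = 3 each), a log2 difference of -1.60 (SE 0.18, limma adjusted p = 0.0301). The differences of NEVKP were -0.64 from No Storage (SE 0.18, limma adjusted p = 0.395) and 0.96 from SCS (SE 0.18, limma adjusted p = 0.419). The size of the SCS difference lay between -1.72 and -1.47 whichever array was left out. The call was kept without 3 of the 9 arrays (SCS replicate 3, NEVKP replicate 2 or NEVKP replicate 3). It was lost without each of the other 6, with adjusted p from 0.0524 to 0.184.

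SLC38A3 (NCBI Gene ID 100156039) encodes the basolateral glutamine carrier of the proximal tubule, which feeds ammonia formation in acidosis. It had 11.55, 8.27 and 9.66 in NEVKP, 10.88, 10.58 and 11.37 in SCS, and 10.50, 11.68 and 11.26 in No Storage. The NEVKP arrays spanned more than 3 log2 units, from the level of the highest No Storage kidneys to far below all others. The SD was 1.64 in NEVKP, 0.40 in SCS and 0.60 in No Storage (n = 3 each). The NEVKP difference from No Storage was -1.32 (SE 0.66, limma adjusted p = 0.584), and it was -0.54 without NEVKP replicate 2. Against SCS the NEVKP difference was -1.12 (limma adjusted p = 0.719), or -0.34 without that array.

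SLC38A1, which concentrates glutamine and other small neutral amino acids in many cell types, had 8.05, 8.73 and 8.12 in NEVKP, 8.43, 8.26 and 8.20 in SCS, and 7.69, 7.85 and 7.60 in No Storage. All 6 stored kidneys lay above all No Storage kidneys. The difference was 0.59 in NEVKP (SE 0.18, limma adjusted p = 0.439), or 0.37 without NEVKP replicate 2, and 0.58 in SCS (SE 0.18, limma adjusted p = 0.163). Between NEVKP and SCS the 95% interval was -0.40 to 0.41. SLC38A2, the related carrier that cells induce when amino acids are scarce, differed from No Storage by 0.19 in NEVKP and 0.15 in SCS, and by 0.27 and 0.32 in its second probe set.

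SLC38A7 and SLC38A9 act on lysosomes, SLC38A7 in glutamine export and SLC38A9 as an arginine sensor that informs the growth kinase mTORC1. SLC38A7 had 6.87, 6.90 and 7.18 in NEVKP, 7.19, 6.62 and 7.21 in SCS, and 7.48, 7.73 and 7.43 in No Storage, with all stored kidneys below. Its differences were -0.56 in NEVKP (limma adjusted p = 0.439) and -0.54 in SCS (0.187), or -0.35 in SCS without SCS replicate 2. SLC38A9 had 6.66, 6.94 and 6.53 in NEVKP, 6.47, 5.70 and 6.37 in SCS, and 6.63, 6.79 and 7.05 in No Storage. SCS lay below both other groups, by -0.64 from No Storage (SE 0.21, limma adjusted p = 0.184), or -0.40 without SCS replicate 2. NEVKP lay 0.53 above SCS (limma adjusted p = 0.648), or 0.29 without that array. SLC38A6, a less studied member, had 7.02, 7.42 and 6.81 in NEVKP, 6.79, 6.204 and 6.68 in SCS, and 7.06, 6.90 and 7.26 in No Storage. SCS was again the lowest group in every array, with -0.52 from No Storage (limma adjusted p = 0.253), or -0.34 without SCS replicate 2.

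**Figure D3:**
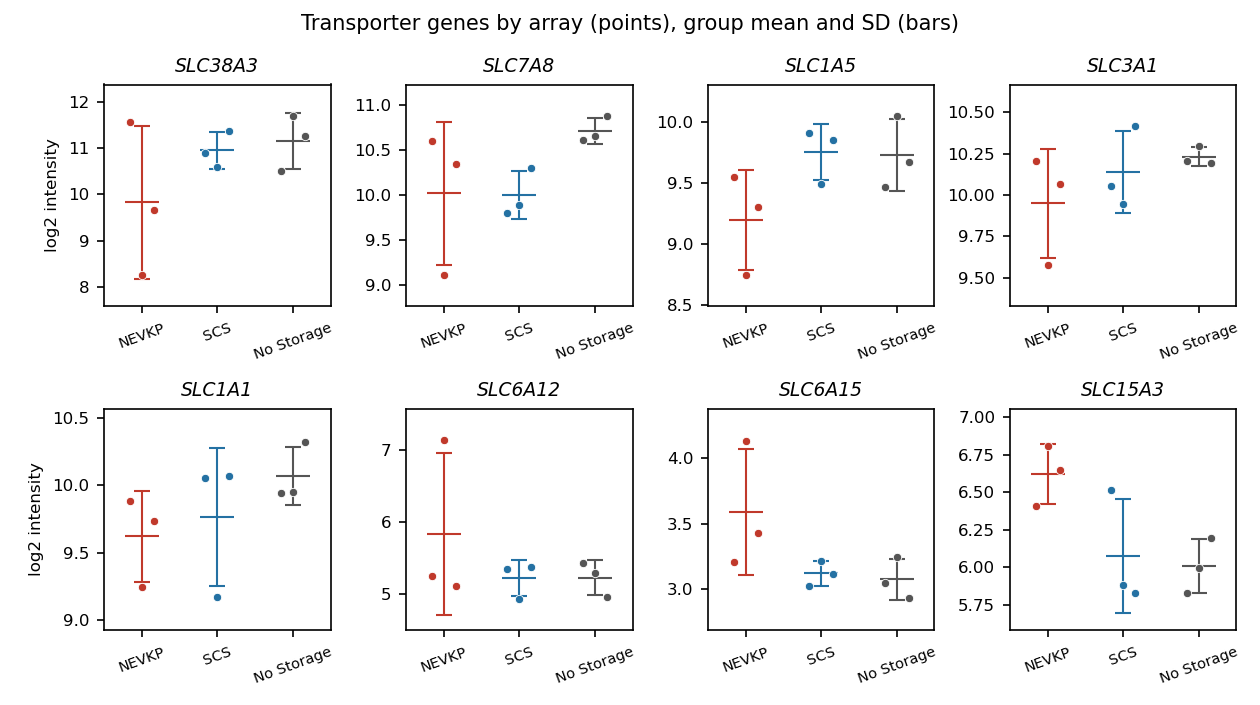
Log2 intensity (y axis, own scale for each gene) of 8 further transporter genes, with a point for each array, a line for the mean and bars for the SD (n = 3 each). NEVKP replicate 2 is the lowest array of SLC38A3 (8.27) and SLC7A8 (9.11) and the highest of SLC6A12 (7.14).

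Peptide transporters showed separate patterns. SLC15A2 (NCBI Gene ID 100048951) encodes the high-affinity carrier that takes back most filtered di- and tripeptides, coupled to protons. Its values were 9.16, 9.47 and 9.50 in NEVKP, 7.38, 8.68 and 8.35 in SCS, and 9.59, 9.31 and 9.75 in No Storage. SCS lay below both other groups in every array, and NEVKP overlapped No Storage. The SCS mean was 8.14 ± 0.68 against 9.55 ± 0.22 in No Storage (SD, n = 3 each), a difference of -1.41 (SE 0.29, limma adjusted p = 0.0702). It passed when arrays were weighted (-1.52, limma adjusted p = 0.0428) and lay between -1.68 and -1.03 with any array left out, smallest without SCS replicate 1. NEVKP stood 1.24 above SCS (SE 0.29, limma adjusted p = 0.52) and 0.17 below No Storage (95% interval of the difference -0.81 to 0.46).

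SLC15A1, the low-affinity peptide carrier best known from the intestine, was dim. It had 3.44, 3.40 and 3.72 in NEVKP, 3.55, 3.59 and 3.98 in SCS, and 3.99, 4.07 and 4.04 in No Storage. All stored kidneys lay below No Storage, by -0.51 in NEVKP (limma adjusted p = 0.41) and -0.33 in SCS (0.332). For SCS the gap was very narrow, with 3.9814 in SCS replicate 3 and 3.9875 in No Storage replicate 1. SLC15A3, a lysosomal carrier of histidine and peptides in immune cells, had 6.41, 6.81 and 6.65 in NEVKP, 6.51, 5.88 and 5.83 in SCS, and 5.83, 5.996 and 6.19 in No Storage. NEVKP lay above No Storage in all arrays, by 0.61 (SE 0.20, limma adjusted p = 0.439). For SCS the 2 probe sets of SLC15A3 disagreed, with 0.07 in the brighter and 0.52 in the other, while for NEVKP they gave 0.61 and 0.59. SLC15A5, a dim and little studied relative, had 2.43, 2.64 and 2.39 in NEVKP, 2.63, 2.53 and 3.04 in SCS, and 2.69, 2.70 and 2.60 in No Storage.

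Macrophage markers are given next to SLC15A3, and their part in its level was not tested. Of 5 measured, 0 were dim, 4 had NEVKP arrays wholly above No Storage (7.94% of all probe sets) and 2 had SCS arrays wholly above (11.3%). Their mean log2 level was 6.98 to 7.25 in NEVKP, 6.83 to 7.18 in SCS and 6.53 to 6.63 in No Storage. The 5 genes did not share 1 pattern, and none passed the threshold (limma). SPI1, a transcription factor of myeloid cells, differed from No Storage by 0.93 in NEVKP and 1.03 in SCS, and TYROBP, a signalling adaptor, by 0.76 and 0.52. AIF1 differed by 0.46 and 0.16, CSF1R, the receptor for macrophage growth factor, by 0.43 and 0.17, and CD14, a receptor for bacterial lipopolysaccharide, by -0.024 and 0.13.

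Genes of the SLC6 family for neurotransmitters, betaine and glycine had small differences, with 0 of 6 past the threshold in any comparison (limma). NEVKP minus SCS was positive for 6 of 6, from 0.17 to 0.74, while it was positive for 8790 of all 19124 probe sets. The sign of SLC6A12 rested on NEVKP replicate 2, without which its difference from SCS was -0.036. The 3 NEVKP arrays lay wholly above the 3 SCS arrays for SLC6A2, SLC6A5 and SLC6A7, as they did for 5.01% of all probe sets. The serotonin transporter gene SLC6A4 had 0.74 (limma adjusted p = 0.655), or 0.35 without NEVKP replicate 1. The noradrenaline transporter gene SLC6A2, the glycine transporter gene SLC6A5, the proline transporter gene SLC6A7 and SLC6A17, a vesicular carrier, had differences from No Storage of -0.15 to -0.02 in NEVKP and -0.46 to -0.19 in SCS. SLC6A12 encodes a carrier of betaine and GABA that protects medullary cells from osmotic stress. It had 5.26, 7.14 and 5.11 in NEVKP, 5.35, 4.94 and 5.37 in SCS, and 5.44, 5.29 and 4.96 in No Storage. NEVKP replicate 2 alone stood apart, and the NEVKP difference from No Storage was 0.61 with it and -0.046 without it.

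**Figure D4:**
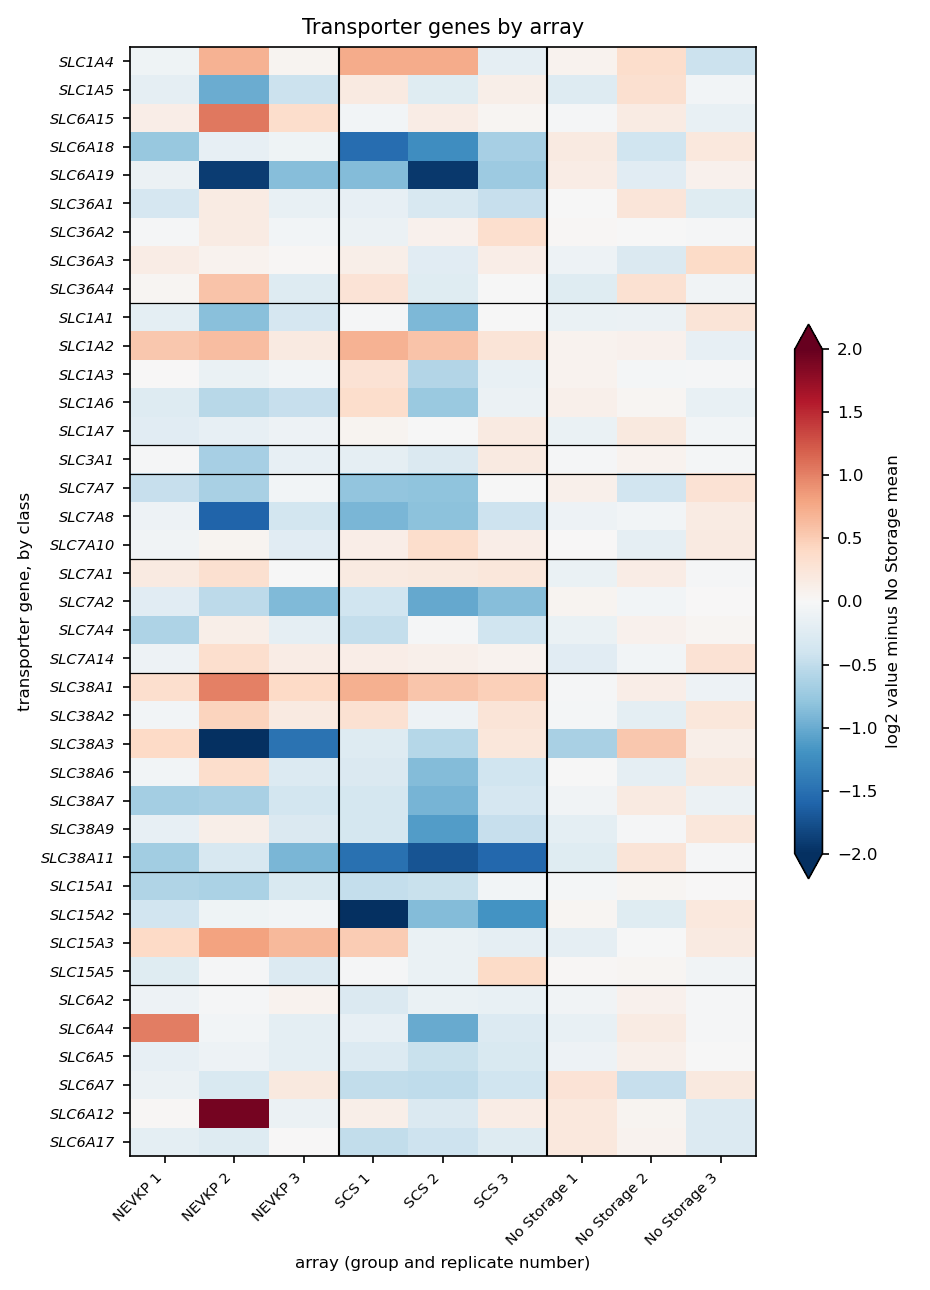
Each of the 39 transporter genes (rows, by class) in each array (columns), coloured by its log2 value minus the No Storage mean of that gene, red for higher and blue for lower. SLC38A11, SLC15A2, SLC6A18 and SLC6A19 are among the genes that are blue in all 3 SCS arrays, and these genes also lie below the No Storage mean in all 3 NEVKP arrays. SLC38A3, SLC7A8 and SLC6A12 stand out in NEVKP replicate 2.

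Within groups the genes varied along single kidneys. SCS replicate 2 was the lowest of all 9 arrays for 14 of 39 genes, against 17.3% of all probe sets, and NEVKP replicate 2 was the highest for 10 and the lowest for 5, against 14.6% and 16.5%. The genes lowest in NEVKP replicate 2 were SLC38A3, SLC7A8, SLC3A1, SLC1A5 and SLC15A1, and those highest in it included SLC6A12, SLC38A1 and SLC6A15. Of 10 proximal tubule markers, 5 had their lowest value in NEVKP replicate 2 and 4 in SCS replicate 2. The median of these markers relative to No Storage was -0.23, -1.09 and -0.36 in NEVKP replicates 1, 2 and 3 and -0.64, -1.04 and -0.46 in SCS replicates 1, 2 and 3. The same median for the transporter genes was -0.11, -0.06 and -0.14 in NEVKP and -0.16, -0.32 and -0.12 in SCS. Within NEVKP, replicate 2 had the lowest marker median and the transporter median closest to No Storage. By the mean over the transporter genes, NEVKP replicate 1 (-0.103) was closest, and NEVKP replicate 2 had -0.12. Within SCS, replicate 2 was lowest on both medians. The transporter list also holds dim genes and genes known from neurons, so its median does not describe the proximal tubule carriers alone. Whether the share of proximal tubule cells bears on the transporter levels was not tested.

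**Figure D5:**
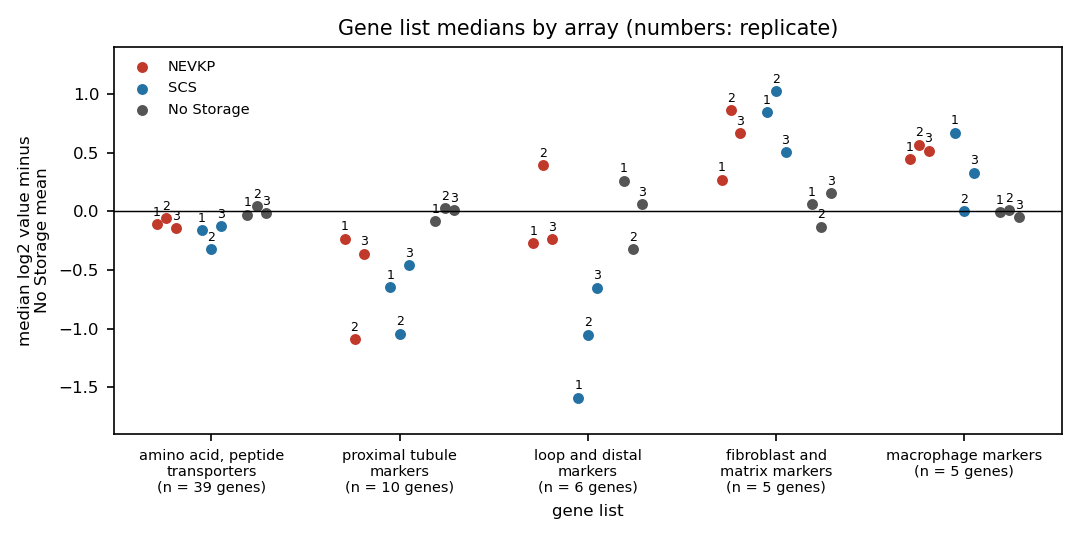
Median over the genes of a list of the log2 value minus the No Storage mean (y axis), for each array (points, numbered by replicate), for the transporter genes and 4 lists of cell type markers. Proximal tubule markers reach -1.09 in NEVKP replicate 2, and loop and distal tubule markers lie lower in every SCS array than in any NEVKP array.

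Markers of other segments and cells were read in the same groups and are given with their values. In NEVKP the 3 arrays lay wholly below No Storage for 3 of 10 proximal tubule genes, 0 of 6 loop and distal tubule genes and 6 of 9 collecting duct genes, and for 8.57% of all probe sets. In SCS these counts were 9, 5 and 7, and the share of all probe sets was 11.6%. The mean log2 level of the proximal tubule list was 9.42 to 10.39 in NEVKP, 9.54 to 10.16 in SCS and 10.44 to 10.56 in No Storage. The exception among proximal tubule genes was SLC34A1, a phosphate carrier, at 1.02 in SCS. Fibroblast and matrix genes lay wholly above No Storage for 3 of 5 in NEVKP (7.94% of all probe sets) and 5 of 5 in SCS (11.3%). Other lists separated in fewer genes. Podocyte genes lay wholly below No Storage for 1 of 3 in NEVKP and 0 in SCS, and endothelial genes for 0 of 4 and 1. T and NK cell genes lay wholly above for 2 of 5 in NEVKP and 1 in SCS, and B and plasma cell genes for 1 of 3 and 0. For these marker lists 0 genes passed the threshold in any comparison (limma).

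Genes around amino acid supply outside these families were read as a further list. Of 15 measured genes of the amino acid response, which cells switch on when amino acids run short, 0 passed in any comparison (limma). Of all probe sets, 0.162% passed in SCS against No Storage and 0% in each NEVKP comparison. The transcription factor gene ATF4 differed from No Storage by 0.26 in NEVKP and 0.36 in SCS, and ATF3 by 0.59 and 0.54. PSAT1 and PHGDH, enzymes of serine synthesis, had -0.45 and -0.77 in NEVKP and -0.99 and -0.69 in SCS, while ASNS, asparagine synthetase, had 0.13 and 0.23. The amino acid scarcity genes TRIB3 and CHAC1 lay between -0.22 and -0.02 in both groups. The SCS arrays lay wholly above No Storage for 3 of the 15 genes (11.3% of all probe sets): ATF4, ATF3 and CEBPB (0.59). They lay wholly below for 3 (11.6%): PSAT1, PHGDH and SHMT2 (-0.45).

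Of 6 measured genes of growth and osmotic control, 1 passed: MYC, a growth transcription factor, rose in SCS by 1.10 against No Storage (limma adjusted p = 0.0419), where 0.162% of all probe sets passed in either direction. The difference lay between 0.97 and 1.22 with any array left out, and the call was kept without SCS replicate 3 or NEVKP replicate 2 and lost without each of the other 7 arrays (adjusted p from 0.0614 to 0.184). RRAGD and RRAGC, GTPases that bring mTORC1 to the lysosome, differed by -1.42 (limma adjusted p = 0.0741) and -0.54 (0.141) in SCS, and by -0.58 and -0.26 in NEVKP. MTOR itself differed by 0.0081 in NEVKP and 0.16 in SCS. Of 7 other amino acid carriers outside the families above, 0 passed (limma). SLC16A10, the basolateral carrier of aromatic amino acids, had -0.57 in NEVKP and -0.90 in SCS, and PQLC2, a lysosomal carrier of cationic amino acids, -0.58 and -0.66. SLC9A3R1, a scaffold protein of the brush border, had -0.28 and -0.24.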

How the data were processed

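The deposited values are log2 intensities. RMA and limma 3.34.14 are named in the submitters' processing notes; the array type, genome build and any filter were not given in the sources read. RMA scales arrays to each other, so a shift of all genes together would be hidden. Each array came from 1 animal, and groups came from the sample titles. Symbols came from the platform annotation: 13323 probe sets had 1 symbol, 357 several and 5444 none. The 39 gene IDs gave the same symbols in a RefSeq gene table. Models came from limma 3.58.1 under R 4.3.3, over all 19124 probe sets and 9 arrays together, with group as the only factor (6 residual and 4.12 prior degrees of freedom). P values were adjusted by Benjamini-Hochberg over all probe sets, with a threshold of 0.05, and intervals are at 95%. The fit was run on simulated data with known changes and independent noise of equal size in every array. That run checked the code, not the power to find changes in these arrays, whose weights differed. Every transporter gene could be named; values per array are given for genes past the threshold, for the 5 smallest p on each side of a comparison and for 11 measured kidney carriers of 17 listed. Members and lists were chosen with earlier results of these data known. Alternatives were a replicate block, a trended robust prior, array weights, a filter on dim probe sets, centring, mean probe sets, fits of only the groups compared, and leaving out each array.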

Additional observations from a re-analysis of the deposited data

How the results depend on the processing

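All probe sets past the threshold in SCS against No Storage numbered 31, and 83 with a trended and robust prior, 93 with array weights, 82 without the dimmest probe sets, 49 with centred arrays and 48 with probe sets of 1 gene averaged. Leaving out each array gave 0 to 158, and omitting both arrays of lowest weight, an alternative chosen after seeing the data, like those for MYC, gave 0. The transporter genes past it numbered 1, and 2 with array weights (SLC15A2 and SLC38A11), 0 to 1 with each array left out and 0 without both low-weight arrays. Their median difference of -0.19 was -0.065 with array weights, -0.30 without dim probe sets, -0.0085 without both low-weight arrays and -0.23 to -0.0085 with each array left out. In NEVKP against SCS, 1 probe set passed with array weights, 0 to 1 with each array left out, and the median of 0.077 was -0.076 without both low-weight arrays and -0.021 to 0.13 with each array left out. In NEVKP against No Storage the median of -0.11 was -0.16 to -0.072 with each array left out. MYC in SCS against No Storage missed the threshold with only those groups fitted and without both low-weight arrays (adjusted p = 0.0552 and 0.0887, limma), against 0.0276 to 0.0494 under the other alternatives that kept all arrays. The F test passed for 1 transporter gene with array weights (SLC38A11). SLC6A12 in NEVKP against No Storage turned to -0.046 without NEVKP replicate 2, within a range of -0.046 to 0.97 over arrays left out, and likewise without both low-weight arrays. Fewer arrays leave fewer degrees of freedom, and otherwise the cause was not tested. Same-numbered arrays did not deviate together: correlations of their deviations ran from -0.14 to 0.13, and 1 of 9 arrays correlated best with its own number. With the replicate block 27 probe sets passed in SCS against No Storage, and 1 transporter gene, SLC38A11. Of 506 repeats of 30 single-gene differences, 496 kept direction and side of the threshold, 7 lost the call, 1 gained it and 2 turned. Only 1 of the 30, SLC38A11 in SCS against No Storage, was past the threshold in the main fit, so all 7 losses were its own. It passed in 11 of 18 settings, the main fit included. The other differences had no call to lose, so the pooled count does not measure how stable that call is. With 3 arrays a group, differences smaller than the printed intervals allow could not be resolved, and dim probe sets give little signal over background.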
